A study of Mus musculus with 17 samples.

Results

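The metallothionein genes Mt1, Mt2, Mt3 and Mt4 made up 4 of the 28786 genes measured in 17 mammary tumors from CUX1 transgenic mice. They were found as the non-control probes that carry these names, which gave 6 probes on 15 spots, and all 4 genes were kept. The group was chosen by the log2 ratios of these same tumors, from high-Wnt minus low-Wnt differences within each transgene and from histology, so those differences are given below as values with no test. Every tumor arose in an FVB mouse that carries a CUX1 transgene driven by regulatory sequences of MMTV, the mouse mammary tumor virus, which direct expression in mammary epithelium. CUX1 is a homeodomain transcription factor, and p75 and p110 are shorter isoforms of it. Neither an age nor a treatment is given in the sources used here, and no normal mammary gland was analysed here.

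The p75-CUX1 tumors numbered 9. Their 3 high-Wnt tumors, p75-47, p75-80 and p75-94, were adenosquamous carcinomas. The 3 medium-Wnt tumors were an adenomyoepithelioma (p75-90), a solid carcinoma (p75-129) and an adenocarcinoma (p75-216), and the 3 low-Wnt tumors were an adenosquamous carcinoma (p75-101) and the solid carcinomas p75-150 and p75-534. The p110-CUX1 tumors numbered 8, with 2 high-Wnt tumors (the solid carcinoma p110-225 and the adenomyoepithelioma p110-374), 2 medium-Wnt tumors (the adenoma p110-98 and the solid carcinoma p110-121) and 4 low-Wnt solid carcinomas (p110-143, p110-314, p110-360 and p110-416). The Wnt clusters are those the study drew on Wnt genes from the same arrays, read from its heat map. Each tumor came from its own mouse. Tumor epithelium was cut from frozen sections by laser, and its amplified RNA was hybridized in dye swaps against amplified universal mouse reference RNA, the same pool for all tumors. A value below is the deposited log2 ratio of tumor to reference, averaged over the arrays of a tumor, 2 for most and 4 for p110-143 and p110-360, so that 0 means as bright as the reference. Values by dye or by scan day come from a second loess fit without control and outlier spots, which moved a metallothionein value by at most 0.20, for Mt2 in p110-143.

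Metallothioneins are small proteins, rich in cysteine, that hold zinc, copper and other metal ions in clusters and buffer the free level of these metals in the cell. Mt1 and Mt2 are made in many tissues and are induced by zinc through the transcription factor MTF1, which binds metal response elements in their promoters; glucocorticoids, oxidative stress and inflammatory cytokines are further known inducers. Mt3 is best known from the brain and Mt4 from stratified squamous epithelium, and in the breast metallothionein is known from myoepithelial cells and from a share of carcinomas.

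The 4 genes lie side by side on chromosome 8, in the order Mt4, Mt3, Mt2 and Mt1, from position 94137204 to 94180327 of the GRCm38.p6 build, a span of 43124 bases, and 5315 bases separate Mt2 from Mt1, counted between annotated gene ends. The probe that gave the Mt1 value was printed on 10 spots, sits in the coding sequence and maps to chr8:92769155-92769214 of the array's mm7 build. The Mt2 value came from a probe at chr8:92762515-92762574 and the Mt3 value from a probe at chr8:92743071-92743130. Mt4 had a pair of coding probes that share 44 of their 60 bases, shown because they gave different results. The Mt1 probe is printed whole, and capitals in the Mt4 probes mark the shared bases.
Mt1 probe: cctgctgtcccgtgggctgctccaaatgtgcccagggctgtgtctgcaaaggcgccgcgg
Mt4 probe, brighter: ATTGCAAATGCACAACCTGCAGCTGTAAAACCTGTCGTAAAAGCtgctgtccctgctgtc
Mt4 probe, dimmer: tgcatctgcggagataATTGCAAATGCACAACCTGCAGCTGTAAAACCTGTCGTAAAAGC
Each Mt4 probe spans 539 bases of genome (chr8:92727299-92727837 for the brighter and chr8:92727283-92727821 for the dimmer), so its 60 bases cross an intron.

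Mt1 and Mt2 moved together, so the sequences before their starts are shown as RefSeq gives them for GRCm38.p6. Both are on the plus strand and are the 250 bases before the start given in the RefSeq promoter table, at chr8:94178839-94179088 for Mt1 and chr8:94172368-94172617 for Mt2. The Mt1 gene as annotated begins earlier, at 94178883, so 206 of the 250 Mt1 bases lie inside it, while the Mt2 window ends at the base before its gene. Capitals mark the core of a metal response element, searched as TGCACNC or TGCGCNC on both strands with N for any base; no matches overlapped.
Mt1 window: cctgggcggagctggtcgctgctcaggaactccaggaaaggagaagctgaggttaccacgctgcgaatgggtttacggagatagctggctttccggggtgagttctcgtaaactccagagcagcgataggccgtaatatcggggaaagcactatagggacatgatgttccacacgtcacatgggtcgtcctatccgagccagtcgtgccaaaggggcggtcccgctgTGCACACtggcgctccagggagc
Mt2 window: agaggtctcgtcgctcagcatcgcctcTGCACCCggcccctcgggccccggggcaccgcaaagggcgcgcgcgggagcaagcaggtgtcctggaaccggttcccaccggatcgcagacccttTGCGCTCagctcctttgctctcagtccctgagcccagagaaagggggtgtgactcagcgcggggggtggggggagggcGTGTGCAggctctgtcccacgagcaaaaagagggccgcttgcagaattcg
Over the window of 250 bases before and 50 after the start, Mt2 held 4 matches, Mt1 held 3, and Mt3 and Mt4 held 1 each. The nearest matches to the start lay 23 to 17 bases before and 3 to 9 bases after it in Mt1, and 50 to 44 bases before and 5 to 11 bases after it in Mt2. Of 32851 windows of the same length in the RefSeq table, 25.7% held at least 1 match, 1.97% at least 3 and 0.517% at least 4. A match is a description of letters and not a bound site.

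The arrays differed in brightness in ways that touch the groups. In the tumor's color, between 20.9% and 65% of probes stood clear of background (Agilent's own call) in the 17 tumors. In p110-98, p110-225 and p110-374 the reference was 13.3, 9.05 and 12.1 times as bright as the tumor at the bright end of the signals, against at most 4.14 times in the other 14 tumors, and p110-225 and p110-374 are all of the p110 high-Wnt group. The p75 and the p110 arrays come from different scan years, which cannot be told apart from the transgene. The mean log2 ratio of 8 markers of mammary epithelium lay between 1.37 and 3.89 in 16 tumors and was -1.73 in p110-121, labelled as a solid carcinoma, where 3 of the 8 were well above background and 8 immune cell markers averaged 2.01, against at most 0.04 elsewhere.

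Among p75 tumors the high-Wnt cluster had more Mt1 and Mt2 than the low-Wnt cluster, and among p110 tumors it had less. The mean Mt2 difference was 3.10 on the log2 scale in p75 tumors (8.56-fold higher) and -1.63 in p110 tumors (3.08-fold lower). The mean Mt1 difference was 1.92 in p75 tumors (3.79-fold higher) and -1.05 in p110 tumors (2.08-fold lower). In neither gene did the groups overlap, in either transgene, in the deposited values; scaling the arrays to the same spread gave -0.91 for Mt1 in p110 tumors, with overlap. Among all 28786 genes, 7.49% had every high-Wnt above every low-Wnt p75 tumor, 12.1% had every high-Wnt below every low-Wnt p110 tumor, and 0.486% did both, which is printed beside the 2 of 4 members that did both and from which nothing is read, since the members were chosen on this contrast.

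Mt1 is a principal zinc-buffering metallothionein. In p75 high-Wnt tumors its log2 ratio was 1.01 in p75-47, -0.52 in p75-80 and -0.13 in p75-94. In p75 low-Wnt tumors it was -1.84 in p75-101, -2.17 in p75-150 and -1.40 in p75-534. The means were 0.12 ± 0.79 and -1.80 ± 0.39 (SD, n = 3 each), and the medium-Wnt tumors, at -1.34, -0.44 and -1.26, overlapped the high-Wnt group and lay above the low-Wnt group. With median centering in place of loess the high-Wnt and low-Wnt p75 tumors overlapped, with p75-80 at -1.32 and p75-534 at -1.08. In p110 high-Wnt tumors Mt1 was -1.08 in p110-225 and -0.43 in p110-374. In p110 low-Wnt tumors it was -0.42 in p110-143, 0.11 in p110-314, 0.83 in p110-360 and 0.67 in p110-416. The p110 groups were closest at p110-374 and p110-143, which read -0.37 and -0.27 without control and outlier spots, and had means of -0.76 ± 0.46 (SD, n = 2) and 0.30 ± 0.57 (SD, n = 4). The lowest Mt1 of all were the p110 medium-Wnt tumors p110-98 at -2.72 and p110-121 at -2.21.

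Mt2, which is induced by the same signals as Mt1, separated the groups more widely. It was 1.54 in p75-47, 1.41 in p75-80 and 0.72 in p75-94. In the p75 low-Wnt tumors it was -2.13 in p75-101, -2.30 in p75-150 and -1.19 in p75-534. All 3 high-Wnt tumors were above the reference and all 3 low-Wnt tumors below it, with means of 1.22 ± 0.44 and -1.87 ± 0.59 (SD, n = 3 each), while the medium-Wnt tumors, at -1.37, -0.57 and -1.06, overlapped the low-Wnt group. In p110 tumors Mt2 was -1.65 in p110-225 and -0.64 in p110-374. The 4 p110 low-Wnt tumors gave 0.47 in p110-143, 0.20 in p110-314, 0.79 in p110-360 and 0.45 in p110-416. The high-Wnt mean of -1.15 ± 0.71 (SD, n = 2) was below the low-Wnt mean of 0.48 ± 0.24 (SD, n = 4), and the medium-Wnt tumors p110-98 at -2.58 and p110-121 at -2.07 were the lowest of the p110 tumors. The cluster means of both genes ran high, medium, low in p75 tumors and low, high, medium in p110 tumors. In bulk RNA, fewer cells of a type and less RNA per cell cannot be told apart.

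**Figure D1:**
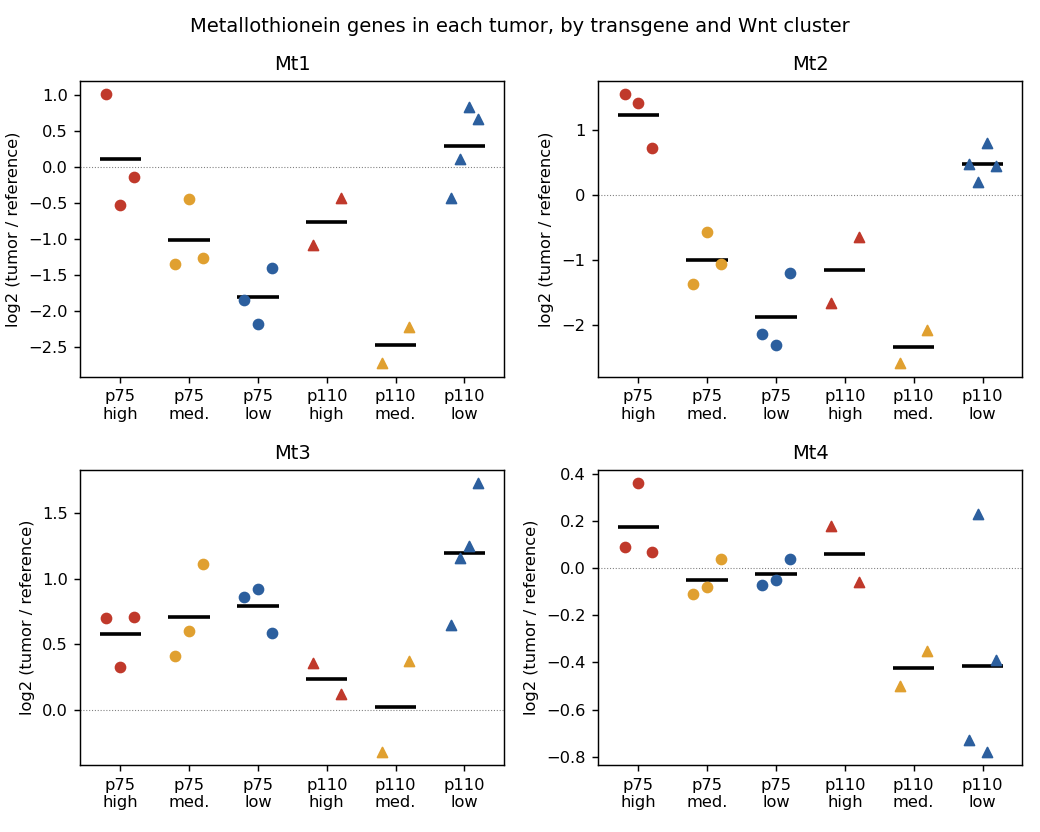
Log2 ratio of tumor to reference (y axes, a scale per gene) for Mt1, Mt2, Mt3 and Mt4 in the 6 groups of transgene and Wnt cluster; each point is a tumor, circles are p75 and triangles p110, and the bar is the group mean. Mt1 and Mt2 run from high to low across the p75 clusters, and in both genes the p110 low-Wnt tumors lie above the other p110 tumors.

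Mt3, the metallothionein best known from brain, was well above background in 16 of 17 tumors and showed its spread in the p110 tumors. The p75 values overlapped across the clusters, with means of 0.58 ± 0.22, 0.71 ± 0.37 and 0.79 ± 0.17 from the high to the low cluster (SD, n = 3 each). In p110 high-Wnt tumors Mt3 was 0.36 in p110-225 and 0.12 in p110-374, the tumor where it was above background on 1 of 2 arrays. In p110 low-Wnt tumors it was 0.65 in p110-143, 1.16 in p110-314, 1.25 in p110-360 and 1.73 in p110-416, each above both high-Wnt tumors. The p110 difference was -0.96 and the p75 difference -0.21, so the direction matched Mt1 and Mt2 in p110 tumors and not in p75 tumors. The p110 medium-Wnt values were -0.32 in p110-98 and 0.37 in p110-121.

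Mt4, the metallothionein of stratified squamous epithelium, was dim. Its brighter probe cleared background on all arrays of 10 of 17 tumors, and its values ran from -0.11 to 0.36 in p75 tumors and from -0.78 to 0.23 in p110 tumors. The highest was 0.36 in the adenosquamous carcinoma p75-80, against 0.09 for the next p75 tumor. With median centering p75-80 read -0.14, below p75-129 at 0.38, and with the tumor in Cy5 it read -0.03 against 0.77 in Cy3. The high-Wnt minus low-Wnt difference was 0.20 in p75 tumors, without overlap, and 0.11 without p75-80; the groups overlapped with median centering, with the tumor in Cy3 alone and in the tumor's color alone. It was 0.48 in p110 tumors, with overlap, where the brighter probe cleared background on all arrays of 3 of 4 low-Wnt tumors and of 0 of 2 high-Wnt tumors; the difference became -1.08 with median centering and -0.03 on the arrays with the tumor in Cy3. The dimmer probe was above background on 1 of 38 arrays in the tumor's color and on none in the reference, and that array was of p75-80. There the dimmer probe read 0.86, while the other 16 tumors lay between -0.08 and 0.15. In the p110 high-Wnt and the p110 medium-Wnt tumors alike the brighter probe was above background on 2 of 4 arrays, and in 0 of 2 tumors on all arrays, so that their Mt4 levels were only partly measured.

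The second Mt1 probe, of a cDNA clone, at chr8:92768988-92769047, was well above background in 14 of 17 tumors. It kept the p75 order without overlap, with 1.74 in p75-47, 0.60 in p75-80 and 1.09 in p75-94 against -0.23 in p75-101, -0.23 in p75-150 and 0.30 in p75-534. In p110 tumors it read 0.34 in p110-225 and 0.67 in p110-374, each on 1 of 2 arrays above background. The p110 low-Wnt tumors gave 2.66, 0.25, 2.14 and 3.82 in p110-143, p110-314, p110-360 and p110-416, so p110-314 fell below the high-Wnt tumors and the groups overlapped. The mean p110 difference by this probe was -1.71, larger than the -1.05 of the brighter probe, and the p75 difference was 1.20.

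Spots of a probe within an array differed little, which does not measure the spread between tumors, while the dye orientations differed by up to 3.46. Over the 10 spots of the Mt1 probe the SD within an array was 0.0275 at the median and 0.0621 at most. The Mt1 ratio with the tumor in Cy5 was between 0.81 below and 0.75 above that with the tumor in Cy3. The Mt2 ratio was higher with the tumor in Cy5 in all 17 tumors, by 0.14 to 3.46. The Mt2 dye gap was 1.22 to 3.46 in p75 high-Wnt tumors and 0.14 to 0.67 in p75 low-Wnt tumors, and 0.70 to 0.94 in p110 high-Wnt tumors against 1.75 to 2.75 in p110 low-Wnt tumors. The p110 medium-Wnt tumors, lowest in Mt2 among p110 tumors, had gaps of 1.84 to 2.07, so in p110 tumors the width did not simply follow the level. Among p75 tumors the lowest in Mt2, p75-150 at -2.30 and p75-101 at -2.13, had the narrowest gaps, 0.54 and 0.14. With the tumor in Cy3 alone, Mt2 in p75 tumors was -0.19, 0.84 and 0.12 in high-Wnt and -2.21, -2.54 and -1.52 in low-Wnt tumors, still without overlap. With Cy3 alone, Mt2 in p110 tumors was -2.04 and -0.92 in high-Wnt and -0.21, -1.20, -0.38 and -0.88 in low-Wnt tumors, which overlapped, and the difference was -0.81. With Cy5 alone the same p110 difference was -2.41.

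**Figure D2:**
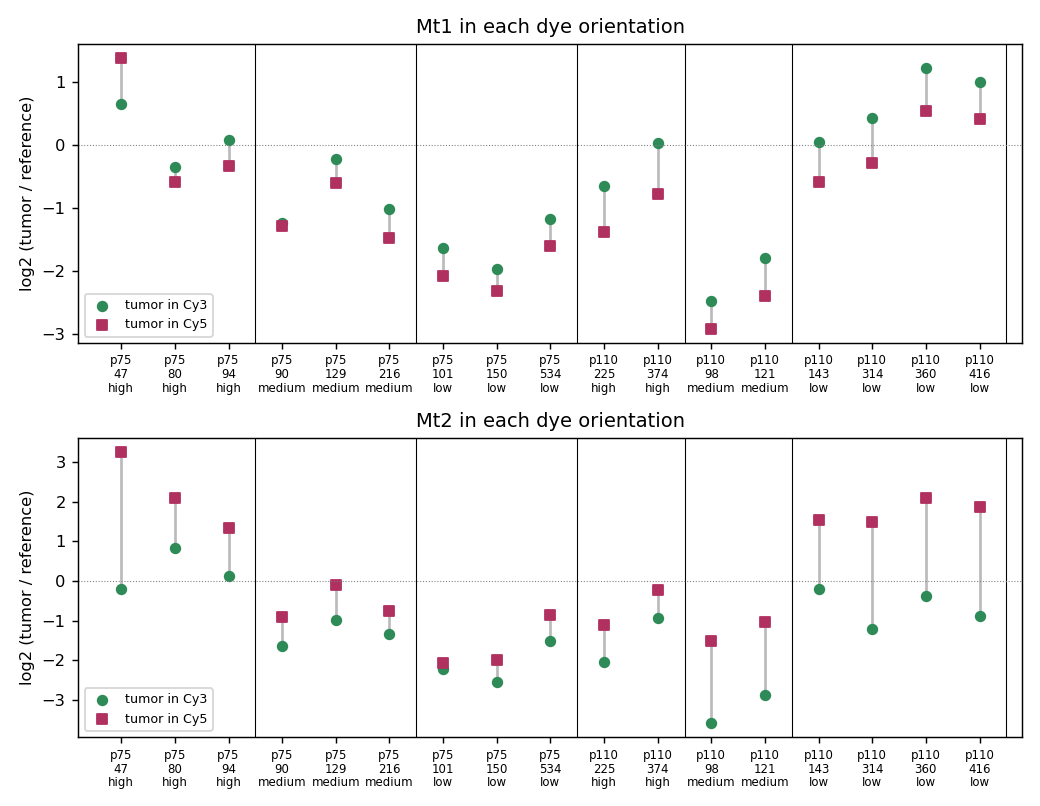
Log2 ratio of tumor to reference (y axes) for Mt1 and Mt2 in each of the 17 tumors (x axes, grouped by transgene and Wnt cluster), with the tumor labelled in Cy3 (green circles) or Cy5 (crimson squares), joined by a gray line. The Mt2 gap between the dyes reaches 3.46 in p75-47 and is 0.14 in p75-101.

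Scan day could be held fixed for part of the p110 contrast. On the day that p110-374 was scanned, p110-360 was scanned as well, and on these arrays Mt1 was -0.37 in p110-374 and 0.90 in p110-360. Mt2 was -0.57 and 0.81 on the same arrays. On the day of p110-225, Mt1 was -1.01 in p110-225 and -0.25 in p110-143, and Mt2 was -1.57 and 0.62. These are 2 pairs of tumors, each read for both genes, and in both pairs the low-Wnt tumor was higher; the part of scan day in the p110 difference was not tested. No day held high-Wnt and low-Wnt p75 tumors together. Among p75 pairs of high-Wnt and medium-Wnt tumors on a shared day, Mt2 was 1.47 in p75-80 and -1.27 in p75-90, and 0.73 in p75-94 and -0.54 in p75-129.

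By histology, Mt1 and Mt2 varied widely within the types that had several tumors. Among the p75 adenosquamous carcinomas Mt2 ranged from -2.13 in p75-101 to 1.54 in p75-47, and the 3 p75 solid carcinomas ranged from -2.30 to -0.57. The means were 0.39 ± 1.71 (SD, n = 4) and -1.35 ± 0.88 (SD, n = 3), with overlap. Mt1 averaged -0.37 ± 1.18 and -1.34 ± 0.87 in the same groups, also with overlap. The exception among the adenosquamous carcinomas was p75-101, the member of that type in the low-Wnt cluster. Without p75-101 the mean Mt2 difference between adenosquamous and solid p75 carcinomas was 2.58, against 1.74 with it. The other adenosquamous carcinomas are the p75 high-Wnt tumors, so type and Wnt cluster largely coincide in p75 tumors. The 6 p110 solid carcinomas spanned -2.07 to 0.79 for Mt2 and -2.21 to 0.83 for Mt1. The adenomyoepitheliomas gave -1.37 and -0.64 for Mt2, in p75-90 and p110-374, the adenocarcinoma -1.06 and the adenoma -2.58. Across all genes, limma called 0 of 28786 (0%) between adenosquamous and solid p75 carcinomas at a Benjamini-Hochberg adjusted p of 0.05, with 818 at an unadjusted p under that value.

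The comparison of p75 with p110 tumors was not used in choosing the genes and was tested. Between the transgenes limma called 7.61% of all genes over 6 groups of transgene and cluster, and none of the 4 metallothioneins. The p75 minus p110 contrast, averaged over the clusters, was 0.08 for Mt1 (SE 0.26, limma adjusted p = 0.912) with a 95% interval of -0.50 to 0.66. For Mt2 it was 0.45 (SE 0.21, limma adjusted p = 0.273), with an interval of -0.03 to 0.92. Mt3 gave 0.21 (SE 0.16, limma adjusted p = 0.541) with an interval of -0.15 to 0.57, and Mt4 gave 0.29 (SE 0.13, limma adjusted p = 0.217) with an interval of 0.01 to 0.57. For Mt1 and Mt2 the contrast averaged cluster differences of opposite sign. In high-Wnt tumors the p75 mean was above the p110 mean, at 0.12 against -0.76 for Mt1 and 1.22 against -1.15 for Mt2. In low-Wnt tumors it was below, at -1.80 against 0.30 for Mt1 and -1.87 against 0.48 for Mt2. In medium-Wnt tumors it was above in both genes, at -1.01 against -2.47 for Mt1. The transgenes were not tested within a cluster. The plain difference of the 9 p75 and 8 p110 tumors, which does not weight the clusters equally, was -0.24 for Mt1, opposite in sign to the contrast, 0.08 for Mt2, 0.03 for Mt3 and 0.33 for Mt4. An exact two-sided permutation test of that difference gave p = 0.662 for Mt1, 0.908 for Mt2, 0.907 for Mt3 and 0.029 for Mt4, unadjusted. Mt4 averaged 0.03 ± 0.14 in p75 tumors and -0.30 ± 0.38 in p110 tumors (SD, n = 9 and 8), and it was above background throughout in 7 of 9 and 3 of 8. These calls depend on the processing: with signals as processed by Feature Extraction the contrast was 1.17 for Mt2 and 0.88 for Mt4 (limma adjusted p = 0.018 and 0.0256), and with median centering in place of loess it was higher for each of the 4 genes, at 1.75 for Mt1 (limma adjusted p = 0.053) and 2.13, 1.53 and 1.39 for Mt2, Mt3 and Mt4 (limma adjusted p = 0.0155, 0.0135 and 0.00265). In the tumor's color alone Mt2 gave 1.37 (limma adjusted p = 0.0018), while Mt3 and Mt4 turned to -0.56 and -0.12 (limma adjusted p = 0.0853 and 0.564). With the tumor in Cy5 alone Mt4 gave 0.77 (limma adjusted p = 0.00496), and with the tumor in Cy3 alone -0.20 (limma adjusted p = 0.485), so that the sign of its contrast depended on the dye. Without p110-314 the Mt4 contrast was 0.37 (limma adjusted p = 0.00923).

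Mt1 and Mt2 followed each other across tumors. Pearson's r was 0.903 and Spearman's rho 0.885 over the 17 tumors, 0.908 and 0.933 over the 9 p75 tumors, and 0.947 and 0.929 over the 8 p110 tumors. These are descriptions with no p, since the genes were chosen for a shared pattern and share each tumor's arrays. Leaving out p75-47 and p75-80, the tumors farthest from the median of Mt2, gave 0.943. The tumor farthest off the common line was p75-80, with Mt2 at 1.41 and Mt1 at -0.52.

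**Figure D3:**
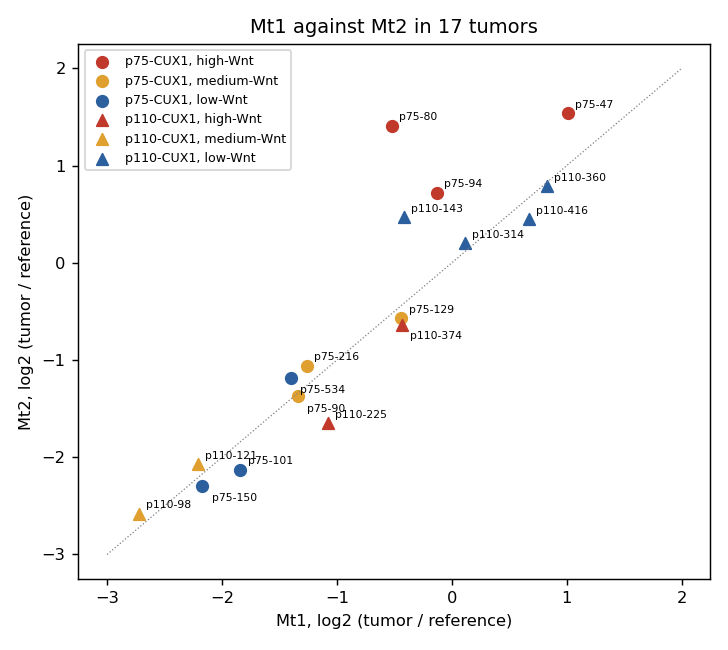
Mt1 (x axis) against Mt2 (y axis), both as log2 ratio of tumor to reference, in the 17 tumors; color is the Wnt cluster, circles are p75, triangles p110, and the dotted line marks equal values. The points follow the line from p110-98 at the lower left to p75-47 at the upper right, with p75-80 above it.

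Mtf1 encodes the zinc-sensing activator of Mt1 and Mt2, and Slc30a1 the zinc exporter that the same factor induces. Neither was called as following the metallothioneins. Slc30a1 against Mt1 gave r = 0.00514 (rho = -0.105, permutation p = 0.985 and 0.687) over 17 tumors, and against Mt2 r = 0.108 (rho = 0.0441, permutation p = 0.682 and 0.868). Mtf1 against Mt1 gave r = -0.419 (rho = -0.355, permutation p = 0.0958 and 0.161), and against Mt2 r = -0.451 (rho = -0.324, permutation p = 0.0702 and 0.203). Without p110-121 and p75-150, the tumors farthest from the median of Mtf1, these became -0.0798 and -0.175, so the negative relation over 17 tumors rested on them, and with median centering it was positive, at 0.573 and 0.52. With that centering Slc30a1 gave r = 0.6 with Mt1 and 0.596 with Mt2. Within the 9 p75 tumors Mtf1 against Mt2 gave r = -0.713 (exact permutation p = 0.0162, adjusted p = 0.0849) and rho = -0.733 (exact p = 0.0311, adjusted p = 0.137), and r was -0.801 without p75-150 and p75-216. Within the 8 p110 tumors it gave r = -0.232 (exact permutation p = 0.583). Adjusted over the 21 tests, 7 relations in 3 sets of tumors, no relation with Mtf1, Slc30a1 or array brightness passed 0.05.

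Array brightness ran with the metallothioneins to a degree the test did not call. The share of probes that cleared background in a tumor's color, set against Mt1, gave r = 0.491 (rho = 0.515, permutation p = 0.0451 and 0.0366, adjusted p = 0.149 and 0.137) over 17 tumors. Against Mt2 it gave r = 0.435 (rho = 0.456, permutation p = 0.0801 and 0.0681). Within p110 tumors r was 0.703 for Mt1 (exact permutation p = 0.0566) and 0.739 for Mt2 (exact permutation p = 0.0476, adjusted p = 0.149), and within p75 tumors 0.357 and 0.181 (exact permutation p = 0.347 and 0.674). Without p110-374 and p75-129, r over the other 15 tumors was 0.649 for Mt1 and 0.58 for Mt2. The 2 p110 high-Wnt tumors, at 24.7% and 20.9%, had fewer probes above background than the 4 p110 low-Wnt tumors, at 35.7% to 54.6%, and the part of this in the p110 difference was not tested.

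The genes most like Mt1 and Mt2 over the 17 tumors were ranked by Pearson's r among 9593 genes well above background in at least 12 tumors, as a description. Over all candidates the median r was 0.00694 with Mt1 and -0.000595 with Mt2. Closest to Mt1 was Pgs1, an enzyme of cardiolipin synthesis, with r = 0.884 and rho = 0.841, first by either measure. Dohh, which modifies the translation factor eIF5A (r = 0.745), Rnf26 (0.735), the serine protease gene Tmprss4 (0.735), Rtf2 (0.727), the RNA-binding protein gene Tardbp (0.719), Arfgap3 (0.719) and Grwd1 (0.713) followed. None of these reached the r of 0.903 between Mt1 and Mt2. Closest to Mt2 was an unnamed transcript, TC1514546 (r = 0.817), then S100a8, a calcium- and zinc-binding protein of neutrophils and squamous epithelium (0.778), the proteasome subunit gene Psmd11 (0.777), Kti12 (0.753), the kinase gene Pkn2 (0.744), Pgs1 (0.740), Josd3 (0.730) and Asb6 (0.724). Pgs1 was the 1 gene in both lists of 8. By Spearman's rho 2 of 8 genes of the Mt1 list and 4 of 8 of the Mt2 list stayed in the first 8. Over 17 tumors the genes after Pgs1 differ little in r and their order is not firm. S100a8 differed by 5.75 between high-Wnt and low-Wnt p75 tumors, more than Mt2, and by -1.04 in p110 tumors, where its groups overlapped.

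Other genes of metal handling and of the known inducers of metallothioneins were read from 6 lists, with 98 genes on the array. In p75 tumors limma called 0.111% of all genes between high-Wnt and low-Wnt tumors and 0 of these 98; at an unadjusted p under 0.05 there were 11 of the 98, beside 6.76% of all genes. In p110 tumors it called 7.38% of all genes and 6 of the 98, 4 higher and 2 lower in high-Wnt tumors. Averaged over the transgenes it called 3.03% of all genes and 4 of the 98, 3 higher and 1 lower. Between p75 and p110 tumors it called 9 of the 98, 3 higher and 6 lower in p75, beside 7.61% of all genes. The p110 high-Wnt arm had 2 tumors: without p110-374, 1 of the 98 was called in p110 tumors, Slc30a5, beside 0.702% of all genes, and without p110-225 there were 4, beside 3.55% of all genes.

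Of 24 zinc transporters, the carriers that move zinc across membranes, the p110 contrast called 1 higher and 1 lower in high-Wnt tumors. Slc30a5, which loads zinc into the secretory pathway, fell by 1.53 in p110 high-Wnt tumors (SE 0.24, limma adjusted p = 0.00628) and stayed called without each of p110-98, p110-121, p110-225 and p110-374. Slc39a7, which releases zinc from the endoplasmic reticulum, was 1.30 higher (adjusted p = 0.0349) and not called without p110-225 (adjusted p = 0.136) or p110-374 (0.228), and it was lower in p75 than in p110 tumors by 1.55 (limma adjusted p = 0.000536). Slc39a2 and Slc39a3 were also lower in p75 tumors, with contrasts of -0.34 and -0.39 (limma adjusted p = 0.0162 and 0.0307). The list's median difference was -0.04 in p75 and -0.28 in p110 tumors, against 0 and 0.02 over all genes. The uptake carriers Slc39a8 and Slc39a14 had the largest mean differences among its uncalled members, -1.99 and -1.45, with -1.51 and -1.61 in p75 tumors and -2.47 and -1.29 in p110 tumors, so their sign was opposite to that of Mt1 and Mt2 in p75 tumors and the same in p110 tumors. Slc30a2, which fills vesicles with zinc in the lactating gland, and Slc39a6 were chosen after their values were seen: the differences were 2.40 and 1.29 in p75 tumors and -2.41 and -1.30 in p110 tumors, none called.

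Of 19 genes of copper and iron handling, Atp7a, the copper exporter, was 1.54 higher in p110 high-Wnt tumors (limma adjusted p = 0.0312) but was above background in 9 of 17 tumors, and it was lower in p75 than in p110 tumors by 1.70 (adjusted p = 0.000688). Cox17, the copper chaperone of cytochrome oxidase, fell by 1.62 in p110 high-Wnt tumors (limma adjusted p = 0.0225). Sod1, the copper and zinc superoxide dismutase, differed by -0.85 in p75 and -0.92 in p110 tumors, and the ferritin light chain gene Ftl1 by -0.16 and 1.81, neither called. The median was -0.16 in p75 and 0.00 in p110 tumors. Of 19 NRF2 antioxidant genes none was called by Wnt cluster. In p75 tumors Gpx2, a glutathione peroxidase of epithelia, differed by 4.24 and G6pdx, which makes NADPH, by 1.21, against 0.88 and 0.98 in p110 tumors, and Abcc1 differed by 0.71 and 1.72. Txnrd1 and Txn1, thioredoxin reductase and thioredoxin, were higher in p75 than in p110 tumors by 0.92 and 0.89 (limma adjusted p = 0.0167 and 0.0193). The list's medians were 0.21 and 0.22.

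Among 11 glucocorticoid response genes none was called, and the medians were -0.47 in p75 and -0.22 in p110 tumors. Pdk4, a brake on glucose oxidation, differed by -3.57 and -2.06, Cebpd by 1.03 and 1.89, and the receptor gene Nr3c1 by -0.89 and -1.34. Of 16 IL-6 and STAT3 genes 2 rose in p110 high-Wnt tumors. Bcl3, a co-regulator of NF-kappaB, rose by 2.59 (limma adjusted p = 0.011), with 0.94 in p75 tumors, and Il6 by 1.92 (adjusted p = 0.0165), although its probe was above background in 3 of 17 tumors. Socs3, a feedback inhibitor of STAT3, differed by 1.01 and 1.44 and the acute-phase gene Saa2 by -0.07 and -2.27. Fgg, a fibrinogen chain gene named after its values were seen, differed by -2.88 and 4.91, the reverse of Mt1 and Mt2 in sign, and was not called. The medians were 0.25 and 0.47. Of 9 heat shock genes Hspb1 was called in the mean of the transgenes, at 1.89 (limma adjusted p = 0.0411). Hsf1 was lower and Dnajb1 higher in p75 than in p110 tumors, with contrasts of -1.10 and 0.81 (limma adjusted p = 0.0216 and 0.0179). Bag3 differed by 0.42 in p75 and -1.71 in p110 tumors and Hspa8 by 0.10 and -1.32, with medians of 0.15 and -0.58 for the list. Dnajb1 was the 1 gene of the 98 that, like Mt1 and Mt2, lay above without overlap in p75 high-Wnt tumors and below without overlap in p110 high-Wnt tumors, at 0.45 and -0.58, beside 0.486% of all genes. Without p110-225 or p110-374 the Wnt cluster calls of Cox17, Bcl3, Il6 and Hspb1 were lost, save that Bcl3 kept a limma adjusted p of 0.0485 in p110 tumors without p110-225, and Atp7a lost its p110 call without p110-374 (adjusted p = 0.379). Of the calls between transgenes, those of Slc39a2, Slc39a7 and Atp7a held without each of p110-98, p110-121, p110-225 and p110-374 in turn, and each of the other 6 was lost without at least 1 of them.

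**Figure D4:**
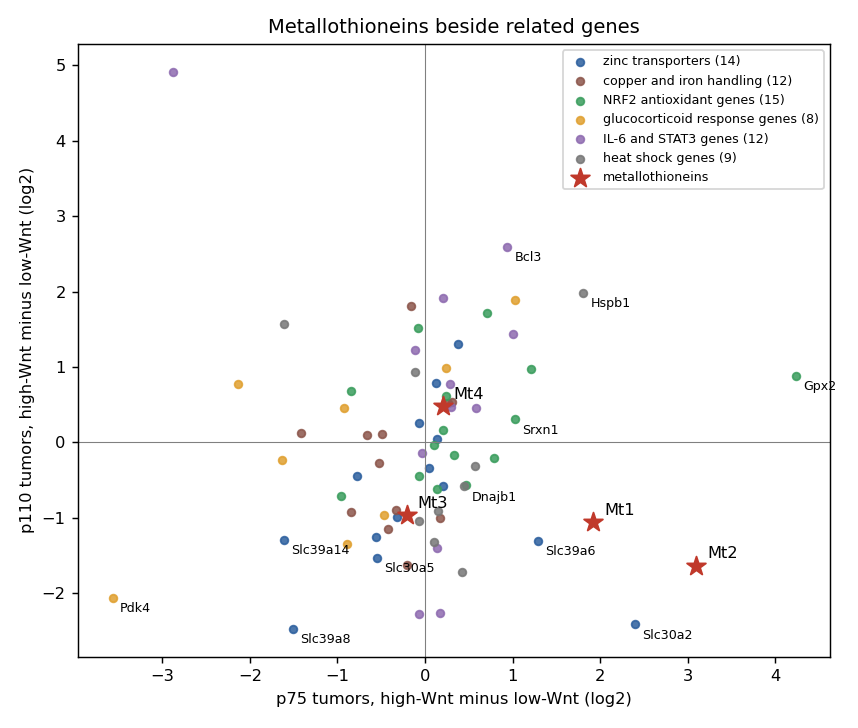
High-Wnt minus low-Wnt difference of log2 ratios in p75 tumors (x axis) against that in p110 tumors (y axis) for the metallothioneins (stars) and for the members of 6 lists measured in at least 12 tumors (points, colored by list, numbers in the key). Mt2 at 3.10 and -1.63 and Mt1 at 1.92 and -1.05 lie at the lower right, where Slc30a2 and Slc39a6 lie too.

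Lists of cell type markers were set beside the metallothioneins as mean log2 ratios. The 13 squamous markers averaged 0.62 to 3.14 in p75 high-Wnt tumors and -0.17 to -0.01 in p75 low-Wnt tumors, where 7 of the 13 were above background in no tumor. Within the high-Wnt cluster the list was 0.62 in p75-47, 1.81 in p75-94 and 3.14 in p75-80, the reverse of the order of Mt1. It was not the reverse of the order of Mt2, which was 1.54, 0.72 and 1.41 in these tumors. The p75 medium-Wnt tumors averaged 0.04 to 0.41 for the squamous list. Krt16, a keratin of stressed squamous epithelium, rose by 6.77 in p75 high-Wnt tumors (limma adjusted p = 0.00212) and differed by 2.04 in p110 tumors (limma adjusted p = 0.107). Krt10, a keratin of differentiated epidermis, rose by 1.24 in p110 high-Wnt tumors (limma adjusted p = 0.0203), as did Myh11, the smooth muscle myosin gene of the myoepithelial list, by 2.82 (limma adjusted p = 0.015). In p110 tumors the squamous list averaged 0.46 to 0.51 in high-Wnt and -0.20 to 0.12 in low-Wnt tumors, so there it was lower where Mt1 and Mt2 were higher. The 10 basal and myoepithelial markers averaged 2.01 to 3.63 and 1.72 to 2.76 in p75 high-Wnt and low-Wnt tumors, and 3.14 to 4.22 and -0.76 to 2.56 in p110. The 11 luminal markers averaged 0.79 to 1.84 and 2.37 to 2.88 in p75, and 1.95 to 3.13 and 1.76 to 3.41 in p110 tumors. The part of these epithelial types in the metallothionein differences was not tested. Of the lists for cells outside the epithelium, 8 fibroblast markers averaged -2.13 to -0.31 and -0.63 to -0.33 in p75, and -0.25 to 0.63 and -4.37 to 0.01 in p110 tumors. The 6 endothelial markers averaged 0.27 to 1.69 and 0.91 to 1.33 in p75, and 0.52 to 1.24 and 1.36 to 2.48 in p110, the 8 immune markers -0.73 to -0.41 and -0.63 to -0.22, and -0.09 to 0.04 and -1.19 to -0.30, and the 6 adipocyte markers 0.59 to 1.93 and 0.97 to 4.74, and 1.12 to 4.63 and 0.23 to 4.24. Of the 3 liver markers, a tissue rich in Mt1 and Mt2, Alb was above background in 2 tumors, Apoa1 in 1 and Ttr in none. The part of these cells was not tested.

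The protein-coding neighbors of the cluster given here differed less between clusters than Mt1 and Mt2. None of them was above in p75 and below in p110 high-Wnt tumors without overlap, beside 0.486% of all genes. On the Mt4 side Nudt21, a gene of messenger RNA 3′ end processing, differed by 0.06 in p75 and -0.02 in p110 tumors. Ogfod1 and Bbs2 were above background in 4 and 2 tumors. On the Mt1 side Nup93, a nuclear pore gene, differed by 0.22 and 0.65 and Herpud1, a gene of the endoplasmic reticulum stress response, by 0.10 and -0.41; Slc12a3 was above background in 1 tumor, and Nlrc5 had no value under that name here. None of the 6 neighbors with a value was called in p75 or p110 tumors, beside 0.111% and 7.38% of all genes. The smallest limma p was 0.475 unadjusted in p75 tumors and 0.058 adjusted in p110 tumors. With 6 genes, nothing is read from these counts.

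**Figure D5:**
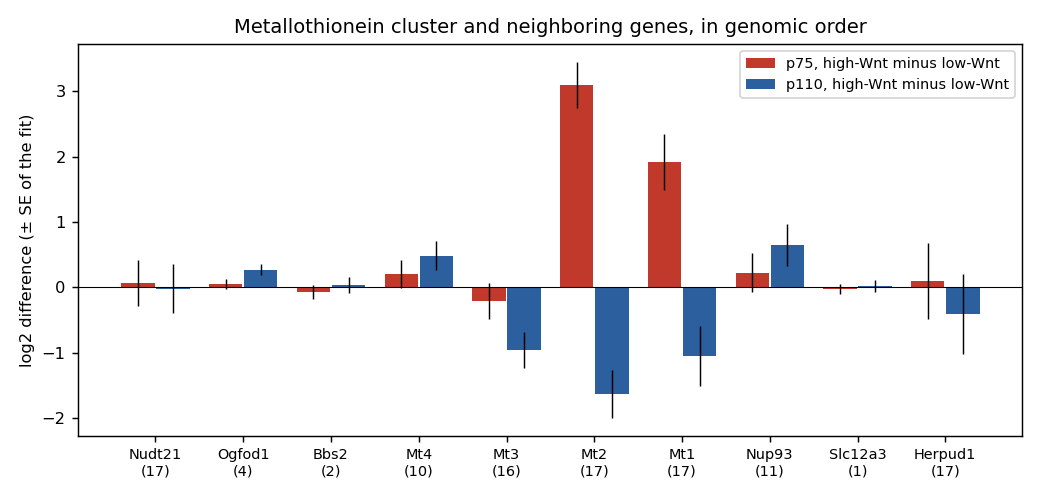
High-Wnt minus low-Wnt difference of log2 ratios (y axis) in p75 (red) and p110 (blue) tumors for the metallothioneins and their protein-coding neighbors in genomic order (x axis, equal spacing, with the number of tumors of 17 in which the probe was above background); bars start at 0 and lines are the standard error of the limma fit. Mt2 and Mt1 have the tallest bars, at 3.10 and 1.92 in p75 and -1.63 and -1.05 in p110 tumors.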

How the data were processed

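RNA from laser-cut tumor epithelium of 17 mice was measured on 38 Agilent two-color whole mouse genome arrays. Per the file headers, spot intensities were read with Feature Extraction, and the deposited log2 ratios of tumor to reference are the authors' values; recomputing them from the intensities with limma (normexp background correction with offset 50, loess within arrays on all spots, control spots included, and the mean over a tumor's arrays) differed by at most 4.98e-08. Alternatives from the intensities, and values by dye or scan day, gave control and outlier spots no weight in the loess. The deposited flags, stored as other values, mark spots well above background, saturated or outlying. The submitters' processing notes name limma; its version is not given in the sources used here. Control spots were left out, spots of a probe averaged, and each of 28786 genes read from its brightest probe; 55.7% of 41174 probes were named through RefSeq and the rest kept the array's name. Above background, or measured, means that all arrays of a tumor carried this flag in the tumor's color.

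Tumors were grouped by transgene from the labels and by Wnt cluster from the study's heat map. limma 3.58.1 in R 4.3.3 fitted 6 groups over all genes with Benjamini-Hochberg adjustment at 0.05, and a separate fit compared p75 histologies. Relations across tumors were tested by permutation with NumPy 2.4.6, by 100000 resamples for 17 tumors and exactly within each transgene. SciPy 1.17.1 gave their ranks and adjustment. The exact permutation test of p75 against p110 tumors was run in R. The limma step was tested on simulated data. The metallothioneins, the lists and the tests were chosen with earlier results of these data known. Named genes were the 4 metallothioneins, the 8 genes most like Mt1 and the 8 most like Mt2, list members called in any contrast with the 3 largest mean differences of each list among genes measured in at least 12 tumors, Mtf1, Slc30a1 and 4 neighbors on each side, of which 1 is not reported here. The number of tumors limits the precision, since the arrays of a tumor were averaged before the fits. Alternatives changed the background correction, normalization, dye, probe, grouping and tumors.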

Additional observations from a re-analysis of the deposited data

Results flagged for a closer look

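Mt4 was highest in p75-80 among the p75 tumors. Its brighter probe read 0.36 there, against 0.09 for the next of the 9 p75 tumors, but with median centering it read -0.14, below p75-129 at 0.38, p75-47 at 0.13 and p75-94 at 0.09. Its dimmer probe read 0.86, against 0.13 for the next of the 5 high-Wnt tumors, 0.15 for the next p75 tumor and 0.04 for the next of the 4 adenosquamous carcinomas. The dimmer probe was above background on 1 array of this tumor. Of 48 groups of values examined in this way, chance alone marks about 1 in 20. The cause was not tested.

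Mt1 and Mt2 moved in opposite directions in the transgenes: the high-Wnt minus low-Wnt difference was 1.92 in p75 and -1.05 in p110 tumors for Mt1, and 3.10 and -1.63 for Mt2. The difference between the transgenes was not tested, since the genes were chosen on it.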

How the results depend on the processing

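The Mt1 and Mt2 differences kept their sign in each transgene under every alternative that kept the transgenes apart. With the 3 clusters pooled over the transgenes, high-Wnt minus low-Wnt was 0.37 for Mt1 and 0.80 for Mt2, opposite to the p110 values, -0.58 for Mt3 and 0.38 for Mt4, and 53 genes were called in the mean. Median centering gave p110 differences of -3.34, -3.85, -2.54 and -1.08 for Mt1 to Mt4, the last reversed, and histology differences of -0.28 for Mt3 and -0.07 for Mt4. It gave p75 minus p110 contrasts of 1.75, 2.13, 1.53 and 1.39 for Mt1 to Mt4, and 3741, 373 and 7631 genes called in p110, in the mean and between transgenes; r with Mtf1 reversed to 0.573 for Mt1 and 0.52 for Mt2. Feature Extraction signals gave -2.64 for Mt2 and -1.54 for Mt3 in p110, 0.52 for Mt4 in p75, and contrasts of 1.17 for Mt2 and 0.88 for Mt4. The tumor's color alone gave 2.25 for Mt2 and 0.03 for Mt3 (reversed) in p75, contrasts of 1.37 for Mt2, -0.56 for Mt3 and -0.12 for Mt4, and 3581 genes called between transgenes. Cy5 alone gave Mt2 3.88 in p75 and -2.41 in p110, Mt4 1.01 in p110 and a contrast of 0.77, with 20, 1234, 357 and 1 genes called in p75, p110, the mean and by histology. Cy3 alone gave Mt2 2.34 and -0.81, Mt4 -0.03 in p110 (reversed), contrasts of -0.18 for Mt1 and -0.20 for Mt4, and 10, 380 and 1306 genes called in p75, the mean and between transgenes. Scaling the arrays gave 612, 12 and 1234 genes in p110, the mean and between transgenes, and no background correction gave 18 in p75. The mean of a gene's probes gave a Mt1 contrast of -0.14. The other Mt1 probe gave 1.20 and -1.71 and the other Mt4 probe 0.06 in p110, both chosen after seeing the data, as was a random block for scan day (correlation 0.0834), which changed no metallothionein call. The causes were not tested.

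Leaving out 1 tumor at a time gave 8 (without p75-150) to 133 (without p75-47) genes called in p75, 202 (without p110-374) to 2946 in p110, 210 (without p110-374) to 2093 (without p110-143) in the mean, 1522 to 2835 between transgenes and 0 to 5 by histology. Mt2 in p110 ranged from -2.13 (without p110-374) to -1.12 (without p110-225), and the Mt4 contrast from 0.25 to 0.37. No paired analysis was possible because the replicate numbers are mouse numbers that no groups share. Shared scan days entered the fits only as the random block, and tumors on a shared day were otherwise set side by side as values. Groups of 2 to 4 tumors and the dim p110 high-Wnt arrays limit every p110 value.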
